A study of Sus scrofa with 30 samples.

Results

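The genes described here are the receptors for growth hormone and prolactin (GHR and PRLR), the transcription factors both receptors use (STAT5A and STAT5B), and the receptors for oestrogen and progesterone (ESR1 and PGR), as measured in the teats of pigs. They were taken as every probe set whose single gene symbol in the platform annotation is one of these names, which gave 9 probe sets of 6 genes, out of 24123 probe sets and 6765 genes with a single symbol. Teats of 10 slaughter pigs of commercial dam lines (mean end weight 110 kg) were separated into epithelial and mesenchymal tissue, and each piece was hybridised to 1 Affymetrix Porcine Genome array. The study addresses the predisposition to inverted teats, which cannot protrude for suckling. A total of 5 animals had no inverted teat (950, 957, 1040, 1058 and 1109, here called non-affected) and gave a normal teat. The other 5 had inverted teats (963, 964, 1037, 1059 and 1103, affected) and gave both a normal and an inverted teat, so each of the 6 combinations of tissue and teat held 5 arrays. By breed, 6 animals were Large White x German Landrace. Of the other 4, German Landrace were 957 and 963, and the cross Pietrain x (Large White x German Landrace) gave 1103 and 1109. The labels name no treatment, and teat type had been judged by eye and by palpation. Beyond the tissue name they do not say which cells a piece held.

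GHR and PRLR are cytokine receptors that lack a kinase of their own. On binding of hormone they activate the kinase JAK2, which phosphorylates STAT5A and STAT5B, and these enter the nucleus and switch on target genes, among them the casein genes in mammary epithelium. ESR1 and PGR are nuclear receptors that bind DNA directly. In the mammary gland of rodents and humans both are found in a subset of luminal epithelial cells, oestrogen raises PGR, and the receptor-positive cells pass the signal to their neighbours through secreted factors. Growth hormone acts in the gland largely through the stroma, and GHR is well known in fat and muscle.

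Values are log2 signals. Array medians lay between 5.71 and 6.04, and the 30th percentile of an array, used below as the lower bound for testing, lay between 4.49 and 4.84. The tissue labels were only partly borne out by marker genes. Of 9 luminal epithelial markers 8 were higher in epithelial tissue of normal teats, but only 2 without animal 1059 and 4 without 1103 or without 1109. In the same comparison 10 of 11 adipocyte and 13 of 14 skeletal muscle markers were lower. Within the non-affected, affected normal and inverted teat groups 0 luminal markers passed. Of the adipocyte markers 10 were lower in each group, and of the muscle markers 1, 11 and 0. Over the normal teats none of the 5 smooth muscle, 10 endothelial or 7 tested leukocyte markers passed. Of 13 keratinocyte markers 5 were tested there, and 2 of these were higher in epithelial tissue. Of 11 fibroblast markers 2 were higher and 2 lower in epithelial tissue, and after quantile normalization 6 were higher and 0 lower. The sum of the log2 values of the luminal list ran from 44.8 to 81.8 on epithelial and from 31.0 to 84.7 on mesenchymal arrays. The adipocyte sum spanned 72.3 to 102.3 in epithelial and 93.9 to 119 in mesenchymal pieces, with no marker at 0, and the muscle sum 41.1 to 130.4 and 39.3 to 173, with up to 5 and 2 of its 14 markers at 0. The mean of the luminal keratins KRT8, KRT18 and KRT19 was 9.15 to 11.14 on the mesenchymal arrays of animals 950, 957, 963 and 964, and 6.75 on the epithelial array of the inverted teat of animal 1103, against 9.27 to 10.66 on the other epithelial arrays. In such bulk tissue fewer cells of a type and less RNA per cell cannot be told apart.

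GHR, STAT5A, STAT5B and ESR1 lay above the 30th percentile on all 30 arrays. PRLR did so on 1 array, the epithelial inverted teat of animal 1037, and PGR on none, so neither entered the tests. A test was run for 7 of the 9 probe sets, and a member that was not tested is described by its values only. The plot of signal by group shows the 6 genes with that bound.

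**Figure D1:**
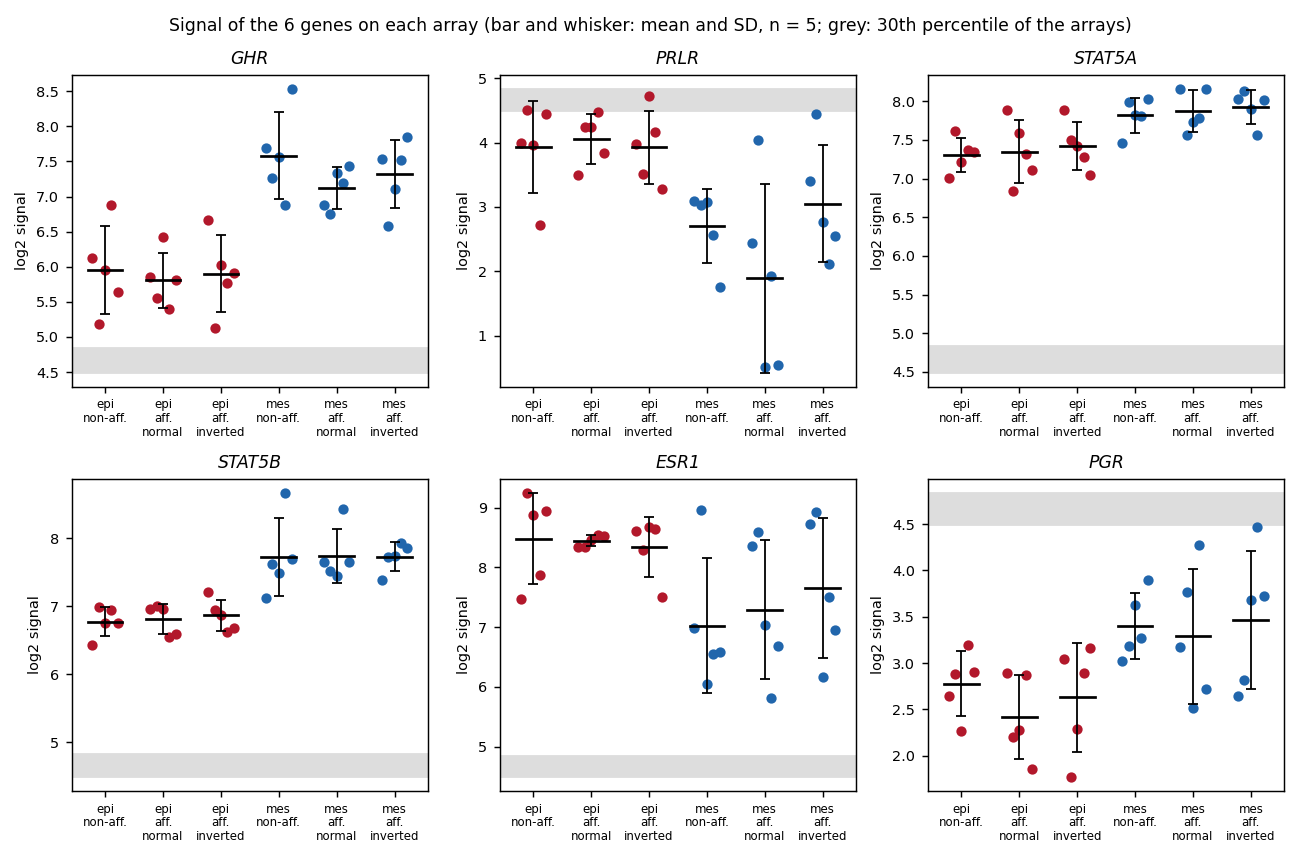
Log2 signal of GHR, PRLR, STAT5A, STAT5B, ESR1 and PGR on each of 30 arrays, by tissue (epi, epithelial, red; mes, mesenchymal, blue) and teat group, with group mean and SD (n = 5 animals); the grey band spans the 30th percentiles of the arrays. GHR, STAT5A and STAT5B lie higher in mesenchymal groups and ESR1 in epithelial ones, while the 3 teat groups within a tissue overlap for every gene and PRLR and PGR lie almost wholly below the band.

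GHR, the growth hormone receptor, was lower in epithelial than in mesenchymal tissue. In epithelial normal teats of non-affected animals 950, 957, 1040, 1058 and 1109 its log2 signal was 6.13, 5.19, 5.96, 6.88 and 5.63, and in mesenchymal tissue of the same teats it was 7.69, 7.26, 7.56, 6.87 and 8.54. In normal teats of affected animals 963, 964, 1037, 1059 and 1103 it was 5.86, 5.55, 6.42, 5.39 and 5.81 in epithelial and 6.88, 6.75, 7.34, 7.19 and 7.44 in mesenchymal tissue. The tissues of affected animals did not overlap, whereas the epithelial piece of animal 1058 was as high as its own mesenchymal piece. In inverted teats of the 5 affected animals, in the same order, the signal was 6.66, 5.13, 6.03, 5.76 and 5.90 in epithelial and 7.54, 6.59, 7.11, 7.52 and 7.85 in mesenchymal tissue, which again overlapped only through animal 963 in epithelial and 964 in mesenchymal tissue.

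Over the normal teats the epithelial minus mesenchymal difference of GHR was -1.47 ± 0.21 on the log2 scale (SE, limma, adjusted p = 6.94e-05), negative in 9 of 10 animals and from -2.90 to 0.01. In that comparison 33.5% of 18286 probe sets passed an adjusted p of 0.05, 12.9% higher and 20.6% lower in epithelium, and among the members 6 of the 7 tested probe sets passed, 5 lower and 1 higher. The lower calls outnumbered the higher ones, at 3762 against 2360, and after quantile normalization the split turned to 2867 against 3481. Of the 4 tested genes all passed with their main probe set, and since a pass was common among all probe sets the count says little of the members.

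The adipocyte markers moved with GHR. Across the 10 epithelial pieces of normal teats GHR followed the mean of the 11 adipocyte markers (Pearson's r = 0.897, Spearman's rho = 0.867, permutation p = 0.00087, two-sided, 0.027 after adjustment over the 31 relations with marker levels), and r was 0.739 without the 2 arrays farthest from the median adipocyte level. Animals 1037 and 1058, whose epithelial normal teats had the highest adipocyte means of 9.30 and 9.21, also had the highest epithelial GHR. In mesenchymal pieces r was 0.67 (rho = 0.636, permutation p = 0.0295, adjusted p = 0.183) and 0.278 without the 2 farthest arrays. With the adipocyte mean as a covariate the tissue difference of GHR was -0.24 (limma, adjusted p = 0.85). STAT5A, STAT5B and ESR1 did not pass under that covariate either (-0.26, -0.74 and -0.05; adjusted p = 0.82, 0.57 and 0.99). The adipocyte mean spanned 7.03 to 9.30 in epithelial and 9.0 to 10.80 in mesenchymal normal teats, which overlap little, and 1 probe set of 18286 passed with it. The part of adipocyte RNA in the GHR difference was not tested further.

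**Figure D2:**
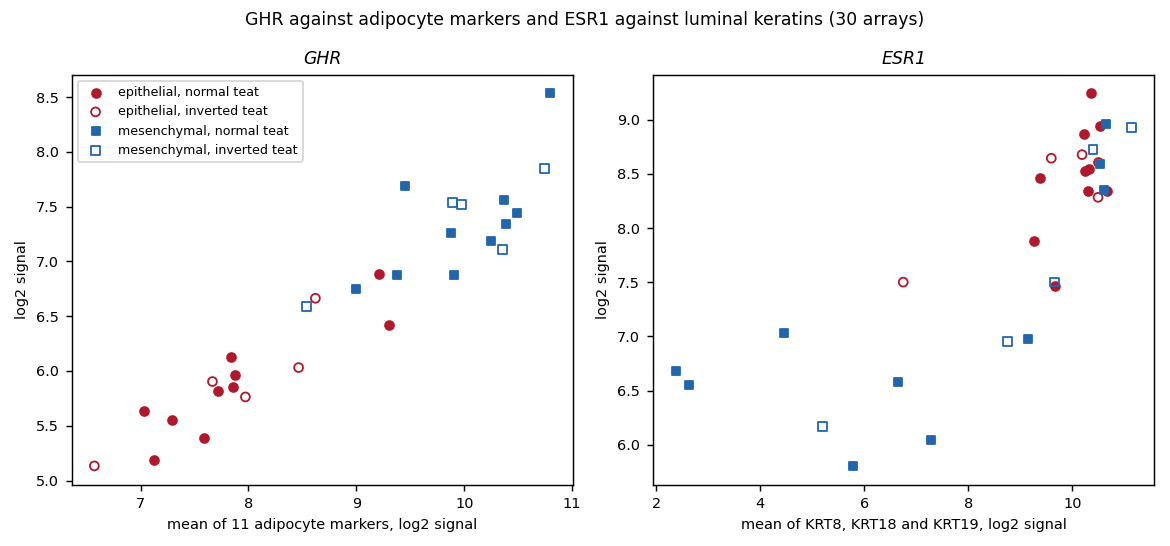
Left, log2 signal of GHR against the mean log2 signal of 11 adipocyte markers; right, ESR1 against the mean of the luminal keratins KRT8, KRT18 and KRT19; each point is 1 of 30 arrays, coloured by tissue, filled for normal and open for inverted teats. GHR is higher where the adipocyte mean is higher, and the mesenchymal arrays with ESR1 above 8 are those with a keratin mean above 10.

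PRLR, the prolactin receptor, had a low signal. In normal teats it was 3.99, 4.51, 3.96, 2.73 and 4.45 in epithelial and 3.09, 3.03, 3.08, 2.57 and 1.76 in mesenchymal tissue of non-affected animals 950, 957, 1040, 1058 and 1109. In affected animals 963, 964, 1037, 1059 and 1103 it was 3.50, 4.24, 4.24, 4.48 and 3.84 in epithelial and 2.44, 4.03, 0.52, 1.93 and 0.55 in mesenchymal tissue. The epithelial piece was the higher in 10 of 10 animals, by 0.16 to 3.71, although the groups overlapped through animals 1058 and 964.

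Because PRLR failed the filter on low signals it was not part of the main test, and values at this level say little of true size. With all 23999 probe sets tested, the epithelial minus mesenchymal difference was 1.69 ± 0.38 (SE, limma, adjusted p = 0.0036). Among the teat groups, PRLR in mesenchymal inverted teats was 3.40, 4.45, 2.76, 2.11 and 2.55 in animals 963, 964, 1037, 1059 and 1103, above the normal teat of the same animal in 5 of 5, by 0.19 to 2.24. The mean difference of 1.16 ± 0.61 (SE) did not pass (limma without the filter, unadjusted p = 0.077, adjusted p = 1.0). That fit did not pair the teats of an animal, and the SD of the 5 differences was 0.92. All 10 values lay below the 30th percentile of their arrays. The keratin mean of those mesenchymal pieces moved as well, from 5.78 to 9.65 in animal 1059 and from 2.38 to 8.76 in animal 1103, and its part in the PRLR values was not tested. Epithelial inverted teats had PRLR at 3.98, 3.51, 4.72, 4.16 and 3.27, higher than the normal teat in 2 of 5 animals.

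STAT5B, which carries signals of both receptors, was lower in epithelial than in mesenchymal tissue. Its probe set with the highest mean had 6.44, 6.99, 6.75, 6.95 and 6.75 in epithelial and 7.12, 7.63, 7.49, 8.67 and 7.70 in mesenchymal normal teats of non-affected animals 950, 957, 1040, 1058 and 1109. In normal teats of affected animals 963, 964, 1037, 1059 and 1103 it had 6.97, 7.01, 6.96, 6.55 and 6.59 in epithelial and 7.65, 7.51, 7.45, 8.43 and 7.66 in mesenchymal tissue. No epithelial value of a normal teat reached the lowest mesenchymal one, and animals 1058 and 1059 stood above the other mesenchymal pieces. The difference was -0.93 ± 0.16 (SE, limma, adjusted p = 0.00034), negative in 10 of 10 animals. The other STAT5B probe set gave -0.50 ± 0.10 (adjusted p = 0.0012), also in 10 of 10 animals. There animals 1058 and 1059 had 7.60 and 7.72 in mesenchymal normal teats and did not stand apart from animal 957 at 7.66. In inverted teats the main probe set had 7.21, 6.95, 6.87, 6.62 and 6.68 in epithelial and 7.38, 7.72, 7.74, 7.93 and 7.86 in mesenchymal tissue of animals 963, 964, 1037, 1059 and 1103, again without overlap.

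STAT5A, the close paralogue of STAT5B, was also lower in epithelium with its main probe set. Its main probe set had 7.01, 7.61, 7.21, 7.37 and 7.34 in epithelial and 7.46, 7.99, 7.82, 7.81 and 8.03 in mesenchymal normal teats of non-affected animals 950, 957, 1040, 1058 and 1109. In affected animals 963, 964, 1037, 1059 and 1103 the normal teat had 7.89, 6.84, 7.59, 7.32 and 7.11 in epithelial and 8.16, 7.56, 7.73, 7.78 and 8.16 in mesenchymal tissue. The tissues overlapped, yet the epithelial piece was the lower in 10 of 10 animals. The difference was -0.52 ± 0.13 (SE, limma, adjusted p = 0.0056). A second probe set gave -0.46 ± 0.16 (adjusted p = 0.031, 8 of 10 animals) and lost the call without animal 1037, 1040, 1103 or 1109 (adjusted p = 0.069, 0.064, 0.083 and 0.084). The STAT5A probe set with the lowest signal, above the 30th percentile on only 9 of 30 arrays, gave 0.05 ± 0.15 (adjusted p = 0.81). Since the genes are close paralogues and no probe sequences were used here, signal shared between STAT5A and STAT5B probe sets cannot be told apart. Adjusted for the keratin mean, STAT5A no longer passed (-0.49, limma, adjusted p = 0.062).

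ESR1, the oestrogen receptor alpha, was the only member higher in epithelial tissue among those tested. In non-affected animals 950, 957, 1040, 1058 and 1109 it had 7.46, 9.24, 8.87, 7.88 and 8.94 in epithelial and 6.98, 8.96, 6.05, 6.55 and 6.58 in mesenchymal normal teats. In affected animals 963, 964, 1037, 1059 and 1103 it had 8.35, 8.35, 8.46, 8.55 and 8.53 in epithelial and 8.35, 8.59, 7.03, 5.81 and 6.68 in mesenchymal normal teats. Epithelial pieces of affected animals lay close together (SD 0.096, n = 5), whereas mesenchymal pieces fell apart, with animals 957, 963 and 964 at the level of epithelium and the rest well below it.

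The mean tissue difference of ESR1 in normal teats was 1.30 ± 0.36 (SE, limma, adjusted p = 0.010), positive in 8 of 10 animals. It was 0.48, 0.28, 0.00 and -0.25 in animals 950, 957, 963 and 964, and between 1.33 and 2.82 in the other 6. Those 4 animals are the ones whose mesenchymal pieces of normal teats carried a keratin mean of at least 9.15. In animal 950, however, mesenchymal ESR1 was low at 6.98. Its difference was small because its epithelial ESR1, at 7.46, was the lowest of all epithelial arrays. Adjusted for the keratin mean, the ESR1 difference was 0.52 (limma, adjusted p = 0.35). In some pieces ESR1 and the keratins parted. The mesenchymal inverted teats of animals 1059 and 1103 had keratin means of 9.65 and 8.76 with ESR1 at 7.50 and 6.95, and the epithelial inverted teat of 1103, with a keratin mean of 6.75, still had ESR1 at 7.50. The part of epithelial cells in the mesenchymal ESR1 values was not tested further.

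PGR, the progesterone receptor, stayed below the 30th percentile on 30 of 30 arrays. Its values ran from 1.77 to 3.20 on epithelial and from 2.51 to 4.47 on mesenchymal arrays. In normal teats the epithelial value was the lower in 10 of 10 animals, by 0.08 to 1.56. With all probe sets tested the difference was -0.75 ± 0.21 (SE, limma, adjusted p = 0.016), the direction opposite to that of ESR1. At this signal the probe set cannot show where PGR is expressed.

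**Figure D3:**
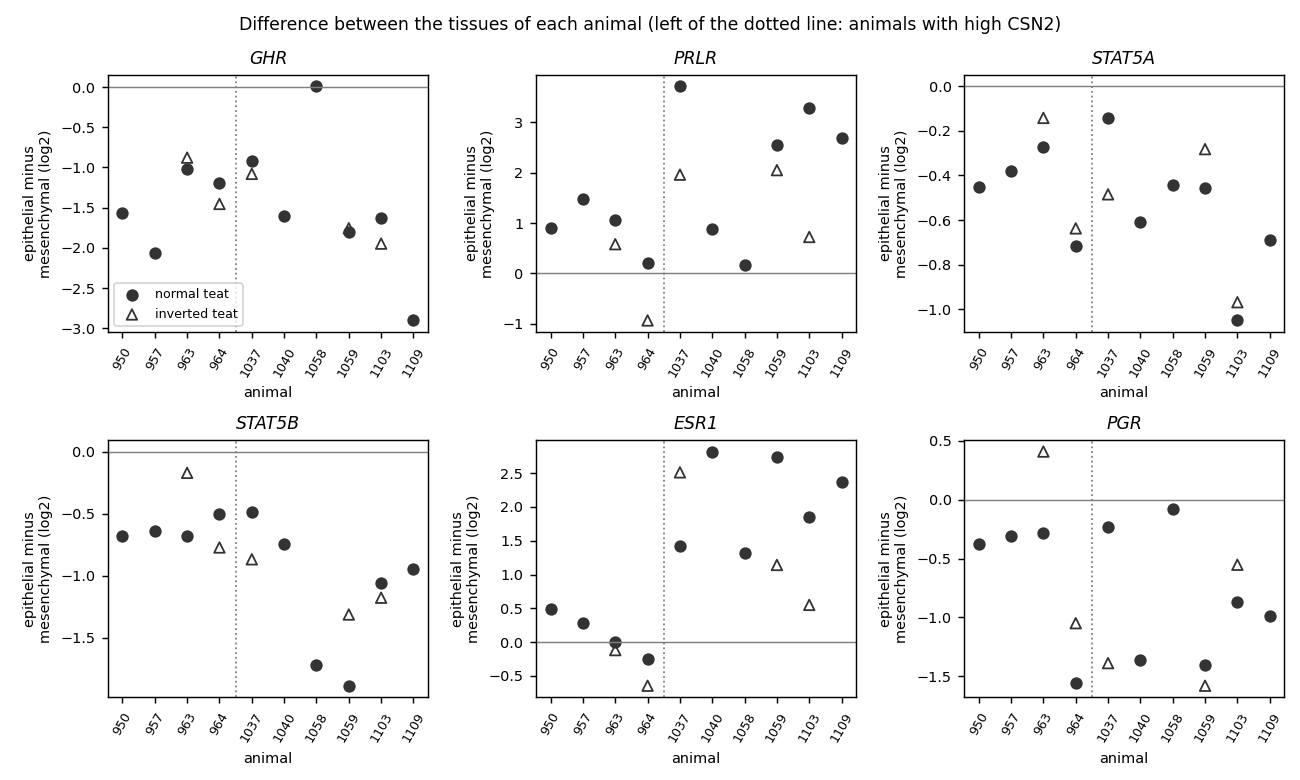
Epithelial minus mesenchymal log2 difference of each animal for the 6 genes, in normal (filled circles) and inverted (open triangles) teats; the dotted line parts the 4 animals with high CSN2 (left) from the 6 with low CSN2 (right). STAT5A and STAT5B lie below 0 in every animal, GHR in all but 1058, and ESR1 lies between -0.64 and 0.48 on the left and between 0.55 and 2.82 on the right.

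The same tissue differences were then taken within each teat group. GHR was lower in epithelium by -1.63, -1.31 and -1.42 (each ± 0.31 SE; limma, adjusted p = 0.0018, 0.010 and 0.0034) in the non-affected, the affected normal and the inverted group. STAT5B differed by -0.94, -0.92 and -0.86 (each ± 0.21 SE; adjusted p = 0.0059, 0.0095 and 0.0084). Of 18783 probe sets 10.6% passed in non-affected animals (1.97% higher and 8.67% lower in epithelium), 11.3% in affected normal teats (2.29% and 9.03%) and 13.8% in inverted teats (1.52% and 12.3%), against 3, 2 and 2 of the 7 tested member probe sets, all lower. After quantile normalization the splits were 901 higher and 963 lower, 1150 and 989, and 749 and 786. The calls in normal teats of affected animals were lost without animal 1059 or 1103. Without animal 1059 GHR was -1.19 (limma, adjusted p = 0.11) and STAT5B -0.68 (adjusted p = 0.12). Without animal 1103 GHR was -1.23 (adjusted p = 0.062) and STAT5B -0.89 (adjusted p = 0.059). The differences themselves stayed negative, and both genes were lower in the epithelial normal teat of every affected animal. In inverted teats STAT5B did not pass without animal 1103 (-0.78, adjusted p = 0.079). The counts over all probe sets moved likewise, to 467 without animal 1109 (1310, 1008 and 1236 without 957, 1040 and 1058) in the non-affected group, to 9 and 377 without 1059 and 1103 in the affected normal group, and to 1515, 1411 and 699 without 1037, 1059 and 1103 in the inverted group.

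STAT5A had differences of -0.51, -0.53 and -0.50 (each ± 0.19 SE) and did not pass in any (limma, adjusted p = 0.073, 0.061 and 0.068). Blocked by animal (replicate block) it passed in all 3 (adjusted p = 0.021, 0.017 and 0.020), as 3819, 4553 and 4432 probe sets in all did, against 1998, 2128 and 2600 without the block. Unblocked, it passed in affected normal teats without animal 950 (-0.53, adjusted p = 0.049) and in inverted teats without 963 (-0.59, adjusted p = 0.039). ESR1 had 1.45, 1.15 and 0.69 (each ± 0.54 SE; adjusted p = 0.083, 0.15 and 0.42), and with the replicate block it passed in non-affected animals (adjusted p = 0.028) but not in affected normal teats (adjusted p = 0.067); unblocked and without animal 957 it was 1.75 in non-affected animals (adjusted p = 0.046). In inverted teats ESR1 of animals 963, 964, 1037, 1059 and 1103 was 8.60, 8.28, 8.68, 8.64 and 7.50 in epithelial and 8.72, 8.93, 6.17, 7.50 and 6.95 in mesenchymal tissue, with both tissues of 963 and 964 again at one level. Whether the tissue difference depended on the teat or the status was tested as an interaction over 30 arrays. No probe set passed (limma, 0 of 18783, which is 0% for both interactions; unadjusted p under 0.05 for 171 and 121), and for the members the interactions lay between -0.46 ± 0.76 (SE, ESR1, inverted against normal) and 0.31 ± 0.44 (GHR, affected against non-affected).

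The inverted teat was next set against the normal teat of the same animals, and affected against non-affected animals. These fits did not pair the teats of an animal. No member passed in either tissue. By group mean, GHR ran from 5.81 ± 0.39 (SD, n = 5) in epithelial normal teats of affected animals through 5.90 ± 0.55 in inverted and 5.96 ± 0.63 in non-affected teats to 7.12 ± 0.30, 7.32 ± 0.49 and 7.58 ± 0.62 in mesenchymal affected normal, inverted and non-affected teats. STAT5B ran from 6.78 ± 0.22 to 6.87 ± 0.23 over the epithelial groups and from 7.72 ± 0.57 to 7.74 ± 0.40 over the mesenchymal ones. ESR1 ran from 7.02 ± 1.13 in mesenchymal non-affected teats to 8.48 ± 0.77 in epithelial non-affected teats. For each of the 6 genes the means of one tissue's 3 groups all lay on one side of the other's, and neighbours in the order of the 6 groups always overlapped.

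In epithelial tissue 0 of 17661 probe sets passed in any of the 3 teat comparisons (0%; limma, unadjusted p under 0.05 for 303 between inverted and normal, 420 between affected and non-affected, and 484 between inverted and non-affected teats). Among the 6 tested member probe sets the largest difference there was 0.21 ± 0.15 (SE) for the second STAT5B probe set between inverted and non-affected teats, and that of GHR was at most -0.15 ± 0.31. The untested PGR had group means of 2.42 ± 0.45 (SD, n = 5) in affected normal, 2.63 ± 0.59 in inverted and 2.78 ± 0.35 in non-affected teats. ESR1 differed by -0.10 ± 0.31 between inverted and normal teats, and without the array of animal 1103, whose epithelial inverted piece was low in keratins, by 0.11. In mesenchymal tissue 0 of 17839 passed (0%; unadjusted p under 0.05 for 78, 201 and 219 in the same order), and without animal 957 1 probe set passed between affected and non-affected animals. GHR was -0.46 ± 0.29 in affected against non-affected animals (unadjusted p = 0.13, limma), with 8.54 in animal 1109 the highest of the non-affected values. ESR1 was 0.36 ± 0.66, 0.27 ± 0.66 and 0.63 ± 0.66 for inverted against normal, affected against non-affected, and inverted against non-affected teats, the SE being the largest among the tested members. STAT5A and STAT5B differed by at most 0.12 ± 0.20 with their main probe sets in either tissue.

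The spread between the 5 affected animals was set beside the difference between the teats of an animal, as the SD of the animals' means over both teats and the median absolute teat difference. For ESR1 these were 1.08 and 0.37 in mesenchyme and 0.24 and 0.22 in epithelium. For STAT5A they were 0.32 and 0.06 in epithelium, where the teats of 1 animal differed by as much as 0.66, and 0.18 and 0.17 in mesenchyme. For STAT5B they were 0.22 and 0.09 in epithelium and 0.27 and 0.27 in mesenchyme. For GHR they were 0.40 and 0.39 in epithelium and 0.35 and 0.33 in mesenchyme. The first value was well above the second for ESR1 in mesenchyme and for both STAT5 genes in epithelium. It was close to the second in the other cases named. An SD of means and a median difference are unlike measures, so close values do not show an equal spread. This is a description without a test.

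CSN2, the beta-casein gene and a target of STAT5 in mammary epithelium, separated the animals. It lay between 12.94 and 16.17 on all 12 arrays of animals 950, 957, 963 and 964, in both tissues, and between 4.0 and 6.39 on the 18 arrays of the other 6 animals. With arrays in 2 clusters no pooled correlation is given, and since the clusters were seen in the data the values are set side by side without a test. The clusters held both statuses, with 2 non-affected and 2 affected animals at high CSN2. By breed they were less even. The German Landrace animals 957 and 963 lay at high CSN2 and the Pietrain crosses 1103 and 1109 at low CSN2. Large White x German Landrace animals lay in both clusters. A relation of CSN2 with breed was not tested.

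In epithelial tissue the ranges of the members overlapped between these clusters. GHR ran from 5.13 to 6.66 on 6 epithelial arrays with high CSN2 and from 5.39 to 6.88 on 9 with low CSN2. STAT5A ran from 6.84 to 7.89 and from 7.04 to 7.59, STAT5B from 6.44 to 7.21 and from 6.55 to 6.96, and PRLR from 3.50 to 4.51 and from 2.73 to 4.72. ESR1 ran from 7.46 to 9.24 and from 7.50 to 8.94. All of these ranges overlap. The STAT5A probe set with the lowest signal had 4.59 to 5.07 against 4.11 to 4.66.

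In mesenchymal tissue some members had a higher and some a lower median at high CSN2. ESR1 ran from 6.98 to 8.96 (median 8.66) on 6 arrays with high CSN2 and from 5.81 to 7.50 (median 6.58) on 9 with low CSN2. PRLR ran from 2.44 to 4.45 (median 3.24) and from 0.52 to 3.08 (median 2.11). STAT5A ran from 7.46 to 8.16 (median 8.01) and from 7.56 to 8.16 (median 7.82). Lower medians at high CSN2 were those of GHR, at 7.07 (6.59 to 7.69) against 7.44 (6.87 to 8.54), of STAT5B, at 7.57 (7.12 to 7.72) against 7.74 (7.45 to 8.67), and of PGR, at 3.10 against 3.68. The second STAT5B probe set had the opposite order to the main one, 7.56 against 7.31. The second STAT5A probe set had 6.65 against 6.52. The STAT5A probe set with the lowest signal had the opposite order, 4.38 against 4.68. All of these ranges overlap between the clusters. The keratin mean of those arrays was 9.15 to 11.14 against 2.38 to 9.65, and the adipocyte mean 8.54 to 9.89 against 9.91 to 10.80, which do not overlap for the adipocyte list. The part of these cell types in the ESR1 and PRLR values was not tested. With CSN2 as a covariate the tissue differences of GHR, STAT5A, STAT5B and ESR1 in normal teats kept their calls (limma). Both tissues of an animal lay in the same CSN2 cluster. This covariate could therefore change the size of a tissue difference little, and the kept calls say nothing of a link with CSN2. Within the 6 animals with low CSN2, 11 relations of a member with CSN2 were computed and none passed; the smallest p was that of mesenchymal STAT5B (r = 0.776, rho = 0.771, exact permutation p = 0.0611, adjusted p = 0.672, n = 6, r = 0.48 without 2 arrays).

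**Figure D4:**
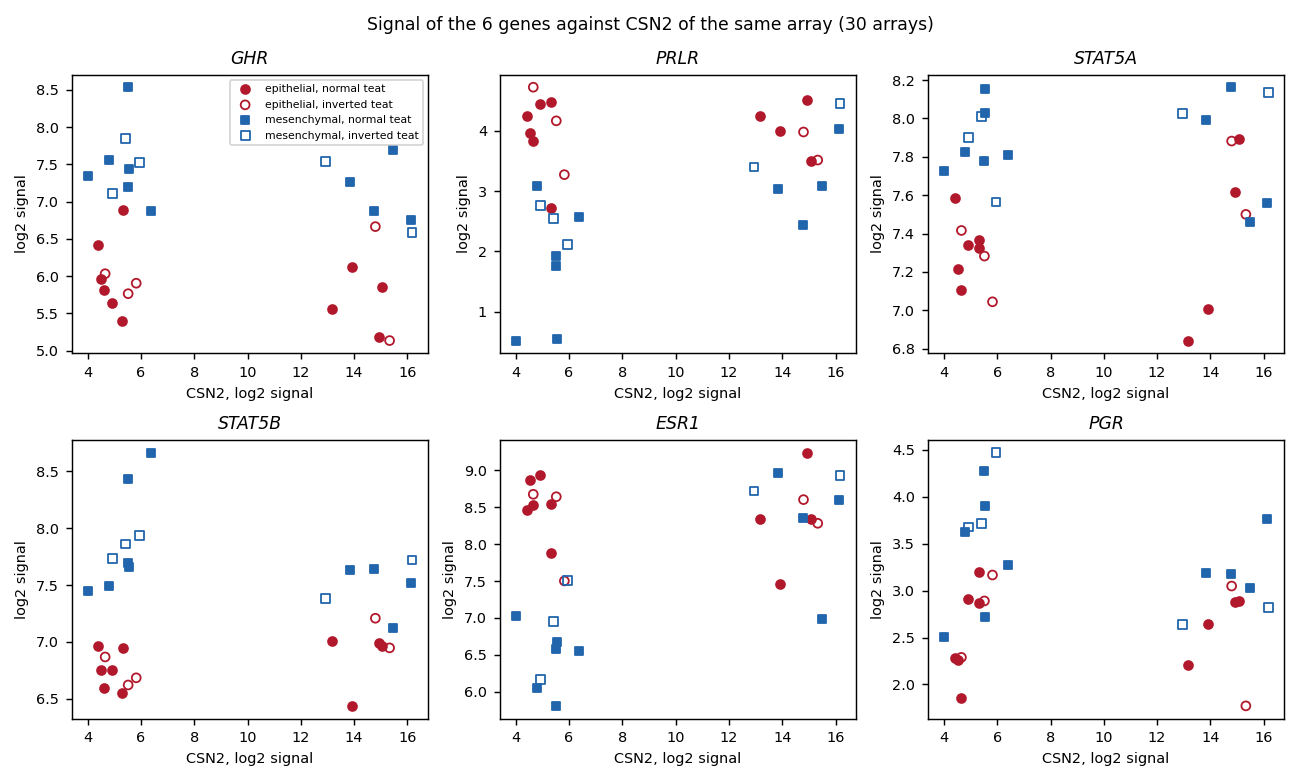
Log2 signal of the 6 genes against the log2 signal of CSN2 on the same array (30 arrays; epithelial circles, mesenchymal squares, filled for normal and open for inverted teats). CSN2 falls into a low cluster from 4.0 to 6.39 and a high cluster from 12.94 to 16.17; mesenchymal ESR1 is mostly higher at high CSN2, and the epithelial values of all genes overlap between the clusters.

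Among the members themselves 25 pairwise relations were computed over the normal teats of a tissue, and none passed after adjustment. Where arrays fell into separate clusters only the larger was used. GHR and PRLR in epithelium had r = -0.771 (rho = -0.758, permutation p = 0.0105, adjusted p = 0.258, n = 10), which became -0.33 without the 2 arrays farthest from the median GHR and so rests on those arrays. ESR1 and PGR in the 7 mesenchymal arrays of the lower ESR1 cluster had r = -0.831 (rho = -0.857, exact permutation p = 0.0206, adjusted p = 0.258, r = -0.673 without the 2 farthest), with PGR below the 30th percentile throughout.

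The genes whose signal was most like each member over the 30 arrays were found among 6229 or 6230 other genes. For GHR these were PCYOX1 (r = 0.963), a prenylcysteine oxidase, ADHFE1 (0.956), a mitochondrial dehydrogenase, and ANXA4 (0.955), a phospholipid-binding annexin, and r stayed at 0.87, 0.857 and 0.839 after the 6 group means were removed. STAT5B was most like CRAT, carnitine acetyltransferase (0.958, and 0.86 within groups), GOT2, the mitochondrial aspartate aminotransferase (0.95 and 0.837), and SUCLG1, a subunit of succinyl-CoA ligase (0.949 and 0.845). STAT5A was most like the tubulin TUBB (0.896 and 0.805), GORASP2 of the Golgi (0.887 and 0.79) and the cargo receptor SURF4 (0.884 and 0.769). ESR1 was most like C1H14orf37 (0.918 and 0.882), BEX3 (0.906 and 0.861) and CRABP2, a retinoic acid-binding protein (0.90 and 0.851). The best matches of the low signals were weaker, with NPG4, a protegrin, for PRLR (0.858 and 0.724), followed by CALM2 and PPP1R14D (0.813 and 0.795), and SZRD1, CRYAB and RNF185 for PGR (0.748, 0.742 and 0.74). These correlations describe arrays that share animals and tissue composition.

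The other genes of these pathways were compared between the tissues of normal teats. In that comparison 33.5% of 18286 probe sets passed, 12.9% higher and 20.6% lower in epithelium, so the list counts below say little by themselves. Of 14 tested genes of prolactin and growth hormone signalling, 2 were higher and 1 lower in epithelium, with a median of 0.00 over the list against -0.06 over all probe sets. JAK2, the kinase bound to both receptors, was higher by 0.91 ± 0.21 (SE, limma, adjusted p = 0.0027) and PIAS1, an inhibitor of STAT proteins, by 0.86 ± 0.19 (adjusted p = 0.0018). STAT3 was lower by -0.23 ± 0.08 (adjusted p = 0.034), a call lost without any 1 of animals 950, 963, 964, 1040, 1103 or 1109 (adjusted p from 0.051 to 0.092), and its difference was 0.00 after quantile normalization. Adjusted for the keratin mean, JAK2 was 0.52 (adjusted p = 0.12) and PIAS1 0.50 (adjusted p = 0.093). The feedback inhibitors SOCS1 and SOCS3 had -0.19 ± 0.17 and 0.04 ± 0.21 and did not pass.

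Of 9 tested genes of the insulin-like growth factors, through which growth hormone acts in many tissues, 1 was higher and 2 were lower in epithelium (median 0.06). IGF1R, the receptor, had 0.61 ± 0.18 (SE, limma, adjusted p = 0.013), the insulin receptor INSR -0.42 ± 0.12 (adjusted p = 0.011) and IGFBP1, a binding protein, -0.50 ± 0.12 (adjusted p = 0.0041). IGF1 itself, the growth hormone target, had 0.27 ± 0.17 (adjusted p = 0.22) and IGF2 0.49 ± 0.19 (adjusted p = 0.051). IGF1R, INSR and IGFBP1 did not pass after adjustment for the keratin mean (adjusted p = 0.28, 0.14 and 0.059).

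Among 14 tested steroid receptors and coregulators 4 were higher and 3 lower in epithelium (median -0.02). FOXA1, which opens chromatin for ESR1 in luminal cells, had 3.29 ± 0.997 (SE, limma, adjusted p = 0.016), GATA3, a luminal transcription factor, 1.39 ± 0.42 (adjusted p = 0.016) and NR3C1, the glucocorticoid receptor, 0.62 ± 0.17 (adjusted p = 0.0099). NCOA1, a coactivator of nuclear receptors, was the other higher gene (0.47 ± 0.18, adjusted p = 0.047). It lost its call without any 1 of animals 957, 1037, 1040, 1058, 1059, 1103 or 1109. GATA3 did not pass without animal 1059 (1.20, adjusted p = 0.051). The 3 lower genes code for chaperone partners of steroid receptors, with FKBP5 at -1.13 ± 0.25 (adjusted p = 0.0021), FKBP4 at -0.53 ± 0.15 (adjusted p = 0.010) and PTGES3 at -0.47 ± 0.16 (adjusted p = 0.028), the last losing its call without animal 1059, 1103 or 1109 (adjusted p = 0.090, 0.051 and 0.055) and after quantile normalization (adjusted p = 0.051). The other chaperones of the list, HSP90AA1 (0.09 ± 0.14), HSP90AB1 (-0.19 ± 0.10) and STIP1 (-0.26 ± 0.14), did not pass (adjusted p = 0.63, 0.15 and 0.17). FOXA1 and GATA3 had 0.14 and 0.18 after adjustment for the keratin mean (adjusted p = 0.78 and 0.67). ESR2, the other oestrogen receptor, had -0.06 ± 0.17.

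Of 6 tested local mediators and targets of steroid action 1 was higher and 2 lower (median 0.03). TFAP2C, a transcription factor of luminal cells, had 2.46 ± 0.75 (SE, limma, adjusted p = 0.017), CTSD, a lysosomal protease known as an oestrogen target, -1.24 ± 0.22 (adjusted p = 0.00042) and TFF1, another oestrogen target, -0.28 ± 0.10 (adjusted p = 0.045). TFF1 lost its call without any 1 of 6 animals (1037, 1040, 1058, 1059, 1103 or 1109; adjusted p from 0.061 to 0.12), after quantile normalization (adjusted p = 0.099), without the filter (adjusted p = 0.061) and with the animal as a fixed term in a replicate block (adjusted p = 0.051). AREG, the secreted mediator of oestrogen in the gland of mice, had 2.25 ± 1.06 (adjusted p = 0.11). XBP1 and MYC, the remaining genes of the list, had 0.13 ± 0.15 and -0.06 ± 0.15 and did not pass.

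Among 13 tested milk genes 1 was higher and 4 were lower in epithelium (median -0.58). LTF, lactoferrin, had 3.92 ± 1.02 (SE, limma, adjusted p = 0.0068). The lower ones were the lipid genes FABP3 (-2.16 ± 0.32), SCD (-1.25 ± 0.19) and FASN (-1.58 ± 0.25), which fat and muscle also use, and LALBA, alpha-lactalbumin (-0.45 ± 0.16, adjusted p = 0.035). LALBA lost its call without any 1 of animals 964, 1040, 1058, 1103 or 1109. CSN2 had -0.58 ± 2.09 (adjusted p = 0.86), its SE reflecting the split between animals. In the teat comparisons and interactions no gene of these 5 lists passed. With the adipocyte mean as covariate no gene of the 5 lists passed between the tissues. The plot of pathway genes shows all that were tested.

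**Figure D5:**
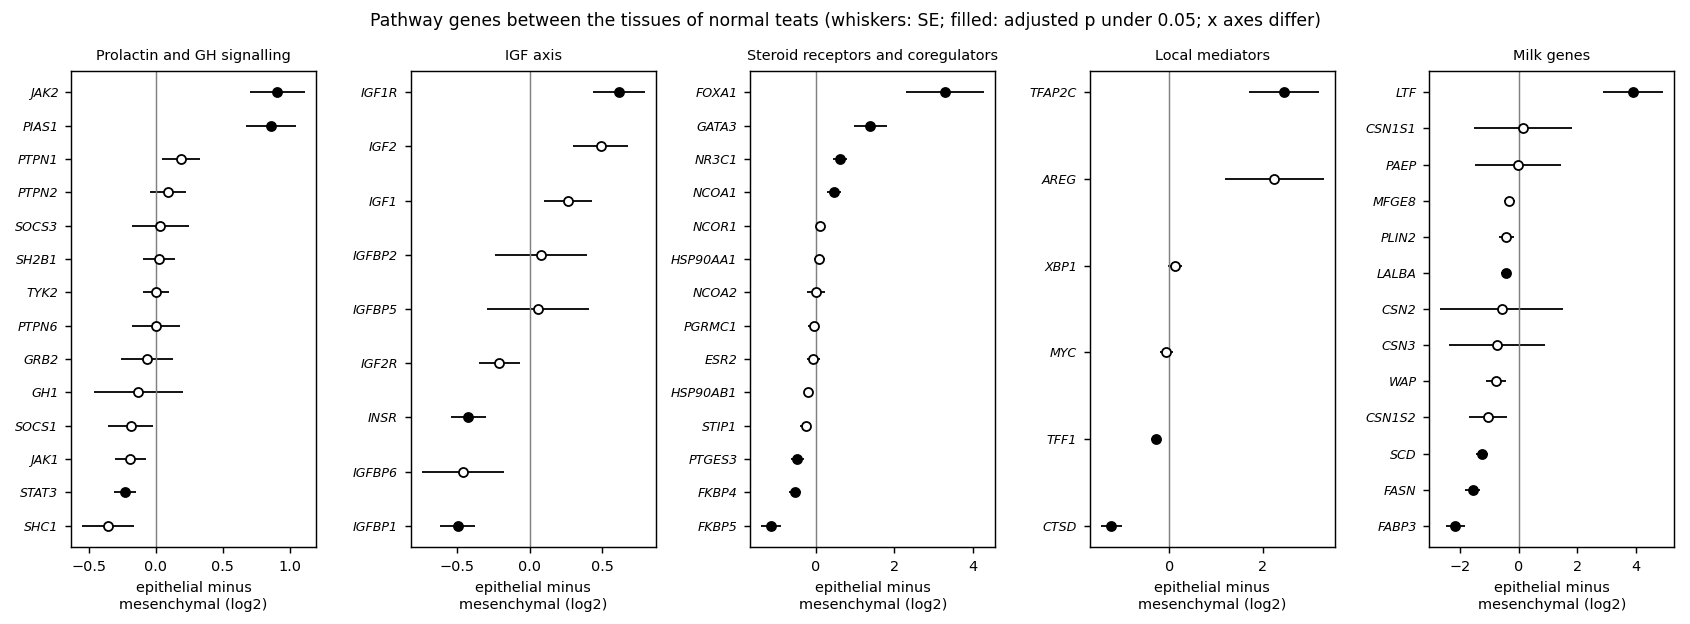
Epithelial minus mesenchymal log2 difference in normal teats, with SE, for the tested genes of 5 pathway lists; filled points passed an adjusted p of 0.05 (limma), and the horizontal axes differ between panels. JAK2 and PIAS1, IGF1R, FOXA1, GATA3 and NR3C1, TFAP2C and LTF stand to the right, and FKBP5, CTSD, FABP3, SCD and FASN to the left.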

How the data were processed

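The deposited values were used as the authors gave them: log2 probe set summaries, 1 array per sample. That the logarithm has base 2 was judged from the range of values; whether arrays were normalised to one another is not given in the sources used here. GCOS 1.1.1 and PLIER are named, without a role, in the submitters' processing notes. Of 24123 probe sets, 124 controls were left out. Symbols came from the platform table, updated by Entrez ID (9989 of 10099 single-symbol probe sets matched). Where a gene had several probe sets, the one with the highest mean is called its main probe set. No sequences or coordinates were used.

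The tests used R 4.3.3 and limma 3.58.1 (lmFit, contrasts.fit and eBayes). P-values were adjusted by Benjamini and Hochberg over all probe sets above their array's 30th percentile on at least 5 arrays of the fit, with a threshold of 0.05. The tissue comparison used the 20 pieces of normal teats and a term for affection status, the comparison by teat group and the interactions 30 arrays, and the teat comparisons the 15 arrays of a tissue. Correlations had exact permutation p-values under 10 arrays and 100000 permutations otherwise. Where the largest gap in a measure exceeded a set share of its range with at least 3 arrays on each side, only the larger cluster was used, a rule chosen after the data were seen. The fits were tested on simulated data.

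Animal numbers come from the sample descriptions and mark arrays of one animal. Deviations from group means correlated between the teats of an animal (r 0.245 to 0.538 in epithelium, 0.141 to 0.668 in mesenchyme) and less evenly between its tissues (r -0.0263 to 0.69). The animal was not a term of the main fits and was a replicate block only in an alternative. Other alternatives were quantile normalization, no filter, no variance moderation, breed, CSN2, keratin or adipocyte covariates, other probe sets and leaving out each animal. The 30th percentile was first taken without the control probe sets; that first setting is kept as an alternative.

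Genes named are every probe set of the 6 members, the 3 genes most correlated with each, up to 3 genes per direction of each pathway list past the threshold, and CSN2. SOCS1, SOCS3, IGF1, IGF2, ESR2, AREG, XBP1, MYC, HSP90AA1, HSP90AB1, STIP1, NCOA1 and LALBA were named after their values were seen, for their roles or to complete a count. The members, lists and tests were chosen with earlier results of these data known.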

Additional observations from a re-analysis of the deposited data

Results flagged for a closer look

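The probe set of STAT5B with the highest mean gave 8.434 in the mesenchymal normal teat of affected animal 1059, against 7.449 to 7.655 in the other 4 animals of the group. That array lies far from the others: its gap was 0.791 of the group's range. It was the 1 such array among 54 combinations of probe set and group examined. Chance alone marks about 1 in every 20, so 1 among 54 is no more than chance would give. Without animal 1059 the STAT5B tissue difference in normal teats of affected animals was -0.68 and did not pass (limma, adjusted p = 0.12). The other STAT5B probe set had 7.72 in that piece, against 7.28 to 7.53 in the other 4.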

How the results depend on the processing

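With 5 animals a group and low signals of PRLR and PGR, small differences cannot be seen, and probe sequences were not used. Apart from leaving out animals, 140 values of the members' tissue differences kept direction and side of the threshold, 14 newly passed, 10 no longer passed and 4 turned. Of their teat differences and interactions 293 kept both and 20 turned, and none passed. The cause of the changes below was not tested.

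In normal teats the count of probe sets was 1780 with the keratin covariate and 1 with the adipocyte covariate. The keratin covariate gave -0.49 for STAT5A and 0.52 for ESR1, and the adipocyte covariate -0.24 for GHR, -0.26 for STAT5A, -0.74 for STAT5B and -0.048 for ESR1, none of which passed. The STAT5A probe set with the lowest signal, here called its low probe set, gave 0.054. Without the filter PRLR (1.69) and PGR (-0.75) were tested and passed, as PRLR did in affected normal teats (2.16).

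By teat group, the replicate block (paired by animal) gave 3819, 4553 and 4432 calls in non-affected, affected normal and inverted teats, and made STAT5A (-0.51, -0.53 and -0.50) and, in non-affected animals, ESR1 (1.45) pass; it changed no other member's call. With breed the same 4 differences passed. In non-affected animals ESR1 also passed with quantile normalization (1.58) and the CSN2 covariate (1.5), and the keratin covariate gave 841 calls. In affected normal teats the keratin covariate gave 47 calls and left GHR (-1.18) and STAT5B (-0.75) short of the threshold, the CSN2 covariate gave 3675 calls and made STAT5A pass (-0.52), the low STAT5A probe set had 0.11 and the second STAT5B probe set -0.41, which did not pass. In inverted teats quantile normalization gave 1535 calls and left STAT5B short (-0.68), the low STAT5A probe set had 0.11 and the second STAT5B probe set -0.32, which did not pass.

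The sign turned in comparisons without any call. For the interaction with inversion the other STAT5A probe sets (the low one last) gave -0.016 and -0.0093, and the keratin covariate -0.084 for STAT5B and 0.40 for ESR1. For the interaction with status those STAT5A probe sets gave 0.020 and 0.12. In epithelium the keratin covariate gave -0.0017 for GHR and 0.13 for ESR1 (inverted minus normal) and 0.036 for ESR1 (inverted minus non-affected), and leaving out the epithelial inverted array of animal 1103 gave 0.11 and 0.074 for ESR1. In mesenchyme, inverted minus normal was -0.021 for STAT5A with quantile normalization, and 0.13 for STAT5B and -0.30 for ESR1 with the keratin covariate. Affected minus non-affected was -0.065 with the low STAT5A probe set, -0.014 for STAT5B with the keratin covariate and -0.0062 with its second probe set. Inverted minus non-affected was -0.048 with the low STAT5A probe set, -0.045 for STAT5B with quantile normalization and -0.055 with its second probe set. The adipocyte covariate turned FASN (0.031), FOXA1 (-0.83), GATA3 (-0.31) and PIAS1 (-0.022).

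Leaving out 1 animal at a time, the calls ranged from 467 to 2427 in non-affected, 9 to 2584 in affected normal and 699 to 3018 in inverted teats, and from 0 to 1 for mesenchymal affected minus non-affected. ESR1 ranged from 1.11 to 1.75 in non-affected animals. In affected normal teats GHR ranged from -1.41 to -1.19, STAT5A from -0.62 to -0.40 and STAT5B from -1.03 to -0.68, and in inverted teats STAT5A from -0.59 to -0.39 and STAT5B from -1.03 to -0.75. The interaction with inversion ranged from -0.013 to 0.12 for STAT5A and -0.064 to 0.17 for STAT5B, and that with status from -0.0054 to 0.72 for GHR, -0.11 to 0.12 for STAT5A, -0.17 to 0.26 for STAT5B and -0.70 to 0.048 for ESR1. In epithelium, inverted minus normal ranged from -0.087 to 0.22 for GHR, -0.071 to 0.14 for STAT5A and -0.19 to 0.13 for ESR1. Affected minus non-affected ranged from -0.34 to 0.080 for GHR, -0.093 to 0.17 for STAT5A, -0.045 to 0.11 for STAT5B and -0.29 to 0.16 for ESR1, and inverted minus non-affected from -0.25 to 0.17 for GHR and -0.39 to 0.074 for ESR1. In mesenchyme, inverted minus normal ranged from -0.081 to 0.12 for STAT5A and -0.088 to 0.11 for STAT5B. Affected minus non-affected ranged from -0.037 to 0.13 for STAT5A, -0.15 to 0.26 for STAT5B and -0.057 to 0.75 for ESR1, and inverted minus non-affected from -0.15 to 0.24 for STAT5B.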
